A study of Mus musculus with 9 samples.

Results

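Livers carrying RAS/AKT-induced hepatocellular carcinoma (HCC) were compared with healthy livers by RNA sequencing of whole tissue. The comparison took 6 of the 9 libraries of the series, chosen by their labels: 3 healthy livers (replicates 1, 2 and 3) and 3 untreated HCC livers (replicates 2, 3 and 4). All mice were female and wild type by label. The healthy mice were an untreated baseline that received neither plasmids nor virus, and their age at harvest was not given. In the HCC mice, 6 weeks old, plasmids encoding myristoylated AKT and the V12 form of NRAS, with the Sleeping Beauty transposase, were delivered by hydrodynamic tail vein injection. The AKT plasmid was driven by the EF1α promoter and the NRAS plasmid by a Caggs promoter, and an N90-β-catenin plasmid was also listed in the growth protocol. A blank AAV8 vector was given 1 week later, and livers were taken 5 weeks after the oncogenes. The labels gave the strain as C57BL/6, whereas the growth protocol named FVB/N. Tumor, plasmid injection, blank virus and any difference in age therefore cannot be told apart in this contrast.

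A healthy liver is made mostly of hepatocytes, which secrete the plasma proteins, clear bile acids and drugs through membrane transporters, and divide their metabolism between the portal and the central end of the lobule. This program is held by a network of liver-enriched transcription factors and nuclear receptors. Hydrodynamic injection puts plasmids mainly into hepatocytes, and active AKT and RAS are known to drive them toward lipid-laden hepatocellular and ductal tumors. Bile duct cells, stellate cells, sinusoidal endothelium, Kupffer cells and leukocytes make up the rest of the tissue.

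Each library held 18258660 to 20964551 counts in the healthy livers and 18293676 to 23908392 in the HCC livers. The healthy libraries had 20763 to 20966 genes with a count and the HCC libraries 22432 to 23173. The 10 most abundant genes took 18.5% to 19.5% of the healthy counts and 16.0% to 16.9% of the HCC counts. Values below are normalized counts (TMM-scaled to the mean effective library size), given in the order of the replicate numbers, and a gene was called where the edgeR adjusted p was under 0.05 and the fold change over 1.5. Of 15717 genes tested, 6417 were called (40.8%), 3575 of them higher (22.7%) and 2842 lower (18.1%) in the HCC livers. Among all tested genes, 40.3% were called with no overlap between the 2 sets of livers. The genes are described through 75 lists holding 2565 symbols, of which 1740 passed the count filter, and each list's calls are read against these shares. Where leaving out 1 liver ended a gene's call or moved a printed fold by over 1.5 times, the value without that liver is given with it. The median log2 fold change of all tested genes was 0.012, and it was 0.434 when libraries were scaled by total counts instead, so values near these shifts depend on the scaling. A list's counts with that scaling are given beside those with TMM where the higher share of its calls moved by over 10 percentage points. Over all tested genes that scaling called 5986 higher and 1492 lower, so an upward move of a list is shared by the genes at large.

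The oncogene loci were read first. Akt1, the kinase gene on chromosome 12 (GRCm39, 112620248 to 112645654, minus strand), held 2105, 2002 and 2009 in the healthy livers and 31315, 32454 and 22700.4 in the HCC livers (log2 fold change 3.82 ± 0.202 SE, adjusted p = 2.9e-08). Nras, a small GTPase gene on chromosome 3 (102965601 to 102976171, plus strand), held 521, 574 and 568 in the healthy livers and 1339, 1499 and 1228 in the HCC livers (log2 fold change 1.29 ± 0.0922 SE, adjusted p = 2.5e-07). Both loci were higher in every HCC liver than in any healthy liver, and counts per gene do not tell a plasmid copy from the endogenous gene.

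Hepatocyte marker genes were lower as a group while remaining abundant. Of 50 tested markers, 40 were lower and 4 higher, with a median log2 fold change of -1.23. Alb, which encodes albumin, held normalized counts of 1997763, 1970748 and 1935953 in the healthy livers and 860224, 818779.6 and 992412 in the HCC livers (log2 fold change -1.14 ± 0.201 SE, adjusted p = 0.00035). Ttr, the thyroxine and retinol carrier transthyretin, held 96962, 79985 and 88357 in the healthy livers and 48096, 46058 and 58733 in the HCC livers (log2 fold change -0.80 ± 0.1504 SE, adjusted p = 0.00062). Neither gene overlapped between the groups. The 4 markers that rose were all secreted proteins. Trf, the iron carrier transferrin, held 426650.1, 371109 and 364477 in the healthy livers and 619698, 562788 and 587889.5 in the HCC livers (log2 fold change 0.61 ± 0.167 SE, adjusted p = 0.0076, but not called without HCC replicate 2 at 0.57 or healthy replicate 2 at 0.57 or healthy replicate 3 at 0.55). Hp, the hemoglobin-binding haptoglobin, held 27537, 20947 and 21764 in the healthy livers and 116239, 112215 and 98613 in the HCC livers (log2 fold change 2.22 ± 0.179 SE, adjusted p = 6.4e-07). Hpx, the heme-binding hemopexin, held 57316, 47444 and 49618 in the healthy livers and 115600.5, 95386 and 102122 in the HCC livers (log2 fold change 1.02 ± 0.156 SE, adjusted p = 0.00012). All 3 bind iron, hemoglobin or heme in plasma. The major urinary protein gene Mup20 held 80.5, 68.5 and 49.03 in the healthy livers and 6502, 2366 and 2532 in the HCC livers (log2 fold change 5.85 ± 0.492 SE, adjusted p = 8.8e-07, or 5.22 without HCC replicate 2). The HCC livers were above the healthy livers for all 4. In bulk tissue, fewer cells of a type and less RNA per cell cannot be told apart, here and for every marker list that follows. The tissue label held in both groups, since hepatocyte markers took 21.2% ± 0.486 (SD, n = 3) of all counts in the healthy livers and 16.3% ± 0.868 (SD, n = 3) in the HCC livers. With 3 livers against 3, the exact permutation test of such a share cannot go below p = 0.1.

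The albumin gene and its fetal counterpart are neighbors, and they moved in opposite directions. Alb lies on chromosome 5 (GRCm39, 90608647 to 90624696, plus strand), and Afp, which encodes the fetal serum carrier alpha-fetoprotein, follows it after a gap of 13887 bases (90638584 to 90656766, plus strand). Afp held 212, 337 and 278 in the healthy livers and 38332, 25629 and 19291 in the HCC livers (log2 fold change 6.65 ± 0.3296 SE, adjusted p = 2.1e-08). The lowest HCC liver held far more Afp than the highest healthy liver, although the HCC livers themselves spread from 19291 to 38332. Spp1, which encodes the secreted phosphoprotein osteopontin, lies farther along the same chromosome (104582165 to 104589235, plus strand) and held 619.6, 479 and 460.5 in the healthy livers and 88189, 117898 and 62830.4 in the HCC livers (log2 fold change 7.43 ± 0.317 SE, adjusted p = 6.9e-09). The promoters of these 3 genes are shown because they belong to 1 gene that fell and 2 that rose by a large factor. They are RefSeq windows of GRCm38.p6 from 250 bases before to 50 after the annotated start, 5′ to 3′ on the plus strand, with capitals marking matches to the letters searched.
Alb (chr5:90460620-90460919): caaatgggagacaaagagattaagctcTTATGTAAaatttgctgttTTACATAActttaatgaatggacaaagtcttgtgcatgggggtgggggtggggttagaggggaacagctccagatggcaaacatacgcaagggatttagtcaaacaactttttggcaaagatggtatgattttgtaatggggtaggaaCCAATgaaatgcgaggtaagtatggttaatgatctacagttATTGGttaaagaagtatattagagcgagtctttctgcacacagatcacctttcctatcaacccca
Afp (chr5:90490464-90490763): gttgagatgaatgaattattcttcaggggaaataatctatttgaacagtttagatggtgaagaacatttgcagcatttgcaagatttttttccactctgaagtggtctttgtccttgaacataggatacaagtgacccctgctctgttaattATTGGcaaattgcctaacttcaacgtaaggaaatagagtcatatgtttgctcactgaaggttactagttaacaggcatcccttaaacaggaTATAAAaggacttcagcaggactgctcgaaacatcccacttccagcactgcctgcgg
Spp1 (chr5:104434861-104435160): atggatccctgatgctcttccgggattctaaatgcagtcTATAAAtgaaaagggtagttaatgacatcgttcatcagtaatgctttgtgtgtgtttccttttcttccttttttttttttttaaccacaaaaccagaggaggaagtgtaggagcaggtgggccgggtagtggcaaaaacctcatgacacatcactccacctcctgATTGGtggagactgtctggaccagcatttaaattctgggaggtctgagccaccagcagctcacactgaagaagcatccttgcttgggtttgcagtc
The search used 11 motifs on both strands: AP-1 as TGANTCA, CRE as TGACGTCA, the E-box as CACGTG, ETS as CCGGAAGT, HNF4 as CAAAGTCCA, C/EBP as TTGCGCAA, the D-box as TTATGTAA, TEAD as GGAATG, E2F as TTTCCCGC, CCAAT, and the TATA box as TATAAA. The CCAAT letters, present in all 3 windows, occurred in 37.4% of the 32851 promoter windows of the RefSeq table, and the TATA letters, present in the Afp and Spp1 windows, in 13.6%. The Alb window also held the D-box letters at 2 places, and 0.938% of all windows held them at least once. No matches overlapped. A second start of Spp1 in the table had a window with no match. These matches describe letters in the windows, and binding of a factor was not measured.

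Hepatocytes of the lobule are zoned, and genes of both zones were lower. Of 25 periportal genes, 17 fell and 1 rose (median log2 fold change -1.41). Hal, the histidine-degrading lyase, held 8019, 8356 and 7577 in the healthy livers and 961, 945 and 1795 in the HCC livers (log2 fold change -2.69 ± 0.319 SE, adjusted p = 1.4e-05). Gls2, the liver glutaminase, held 7728, 8396 and 7496 in the healthy livers and 1335, 1299.6 and 1827 in the HCC livers (log2 fold change -2.40 ± 0.191 SE, adjusted p = 5.6e-07). The riser was Cdh1, which encodes the adhesion protein E-cadherin, with 1511, 1309 and 1307 in the healthy livers and 3860.4, 3708 and 3453 in the HCC livers (log2 fold change 1.42 ± 0.0928 SE, adjusted p = 1.3e-07). Of 30 pericentral genes, 22 fell and none rose at these thresholds (median -1.38). Glul, the glutamine synthetase of the last hepatocytes around the central vein, held 15688, 13748 and 15185 in the healthy livers and 5883, 6170.5 and 8666 in the HCC livers (log2 fold change -1.11 ± 0.172 SE, adjusted p = 0.00013). Cyp2e1, the ethanol-inducible cytochrome P450, held 140895, 144872 and 138035 in the healthy livers and 15451, 15726 and 36137 in the HCC livers (log2 fold change -2.65 ± 0.292 SE, adjusted p = 7.7e-06). Slc1a2, the glutamate transporter of the same cells, held 2608, 2939.8 and 2927 in the healthy livers and 432, 522 and 776 in the HCC livers (log2 fold change -2.29 ± 0.204 SE, adjusted p = 1.4e-06). HCC replicate 4 was the highest of the 3 HCC livers for Hal, Glul, Cyp2e1 and Slc1a2, yet below every healthy liver. The canonical Wnt targets in the list were mixed in their calls. Lgr5, Nkd1 and Notum fell (-1.09, -0.76 and -1.97 on the log2 scale), while the log2 fold changes of Axin2 (-0.41), Rnf43 (-0.23) and Znrf3 (-0.10), did not pass the thresholds, and all but Notum were named after their values were seen.

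Ductal and progenitor markers rose in most members, although the defining keratin did not pass. Of 28 tested, 22 were higher and 2 lower, with a median log2 fold change of 3.50 (2.59 when genes at or under a counting floor of 3 counts per library in one group are set to their bound). Epcam, an epithelial adhesion protein of bile ducts and liver progenitors, held 25.6, 25.7 and 29.9 in the healthy livers and 381, 382 and 250 in the HCC livers (log2 fold change 3.63 ± 0.284 SE, adjusted p = 5e-07). Tspan8, a tetraspanin, held 20.7, 23.2 and 8.53 in the healthy livers and 2478, 1888 and 1968 in the HCC livers (log2 fold change 6.93 ± 0.226 SE, adjusted p = 2.3e-09). Cftr, the chloride channel of the bile duct, held 3.66, 3.67 and 2.13 normalized counts in the healthy livers and 568, 913 and 319.6 in the HCC livers, which from the summed counts is a rise of 188-fold, exact 95% counting interval 95.1 to 435. No liver of one group reached the other for these 3 genes. Krt19, the keratin that defines bile duct cells, held 54.9, 50.1 and 20.2 in the healthy livers and 113, 44.3 and 73.2 in the HCC livers, and the groups overlapped (adjusted p = 0.15). Krt7, the other duct keratin, was low in both groups at 21.9, 9.78 and 12.8 in the healthy livers and 62.7, 46.9 and 32.6 in the HCC livers (log2 fold change 1.67 ± 0.381 SE, adjusted p = 0.0024). The 2 members that fell were Onecut1, a homeobox factor of ducts and hepatocytes (-1.05), and the water channel gene Aqp1 (-0.82).

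Oncofetal genes, which are active in fetal liver and in liver cancer, rose in 26 of 33 tested members and fell in none at these thresholds (median log2 fold change 2.95, or 2.88 with floor genes at their bound). H19, an imprinted noncoding RNA, held 127, 25.7 and 57.6 in the healthy livers and 11699, 8709 and 9998 in the HCC livers (log2 fold change 7.18 ± 0.387 SE, adjusted p = 3.4e-08, or 7.89 without healthy replicate 1). Igf2, the fetal growth factor next to it, was at 0 counts throughout the healthy group and at 154, 118 and 131 in the HCC livers, at least 38.3-fold higher than the counting floor of 3 counts per library. Gpc3, a cell-surface proteoglycan used as an HCC marker, held 7.32, 28.1 and 11.7 in the healthy livers and 1565, 1439 and 1392 in the HCC livers (log2 fold change 6.55 ± 0.262 SE, adjusted p = 4.8e-09, or 7.22 without healthy replicate 2). These 3 genes were separated by a wide margin, and healthy replicate 1 held the most H19 among the healthy livers. Spink1, a secreted trypsin inhibitor, was likewise without a count in the healthy livers and held 230, 196 and 179.7 in the HCC livers, at least 57.5-fold higher. Krt20, an intestinal keratin, also rose from no count to 148, 77.3 and 108 (at least 31.7-fold higher). The remaining list members that did not pass included Igf2bp3 (0.53), Hmga1 (0.50) and Slc2a1 (0.46), named after their values were seen.

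Cycle genes rose almost throughout, 29 of 30 tested, with a median log2 fold change of 3.84. Mki67, the antigen of dividing cells, held 106, 112 and 103 in the healthy livers and 1388, 1529 and 1173 in the HCC livers (log2 fold change 3.67 ± 0.175 SE, adjusted p = 1.5e-08). Ccna2, the cyclin of S and G2 phase, held 9.76, 13.4 and 19.2 in the healthy livers and 400, 389 and 351 in the HCC livers (log2 fold change 4.72 ± 0.242 SE, adjusted p = 2.5e-08). Both were separated between the groups. Pcna, the exception and named for that, had a log2 fold change of 0.38.

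Epithelial junction genes shifted in composition. Among 14 tested keratins and mucins, 8 rose and 1 fell, against 11 higher and 0 lower with total-count scaling. Cdh17, a cadherin of the intestinal and fetal liver epithelium, was close to absent from the healthy livers, with 4.88, 0 and 0, and held 2281, 1557 and 1052 in the HCC livers, a rise of 1020.5-fold, exact 95% counting interval 398 to 3747, with all healthy counts in replicate 1, or 649-fold without healthy replicate 3. Muc13, a membrane mucin of the gut, held 0, 4.89 and 0 in the healthy livers and 225, 142 and 136 in the HCC livers, a rise of 106-fold, exact 95% counting interval 41.2 to 391, with all healthy counts in replicate 2, or 67.4-fold without healthy replicate 3. HCC replicate 3 stood out for Muc6, a gastric mucin, which held 6.098, 17.1 and 8.53 in the healthy livers and 46.4, 328 and 53.6 in the HCC livers (log2 fold change 3.74 ± 0.856 SE, adjusted p = 0.0024, or 2.24 without HCC replicate 3). The other HCC livers lay closer to the healthy ones for Muc6. Of 23 cadherins and adhesion molecules, 14 rose and 1 fell, the latter being Ceacam1, a bile canaliculus adhesion protein, with 3719, 3896 and 3549.5 in the healthy livers and 1793, 1419.5 and 2167 in the HCC livers (log2 fold change -1.05 ± 0.153 SE, adjusted p = 7.7e-05). Of 19 claudins and other tight-junction genes, 10 rose and 3 fell, against 12 higher and 0 lower with total-count scaling. Ocln, the tetraspan protein occludin, held 659.8, 729.8 and 713 in the healthy livers and 411, 419.6 and 388 in the HCC livers (log2 fold change -0.79 ± 0.0884 SE, adjusted p = 9e-06). Tjp3, a junction scaffold, held 359, 317 and 435 in the healthy livers and 1618, 1491 and 1653 in the HCC livers (log2 fold change 2.10 ± 0.129 SE, adjusted p = 8.4e-08). Neither pair of groups overlapped.

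**Figure D1:**
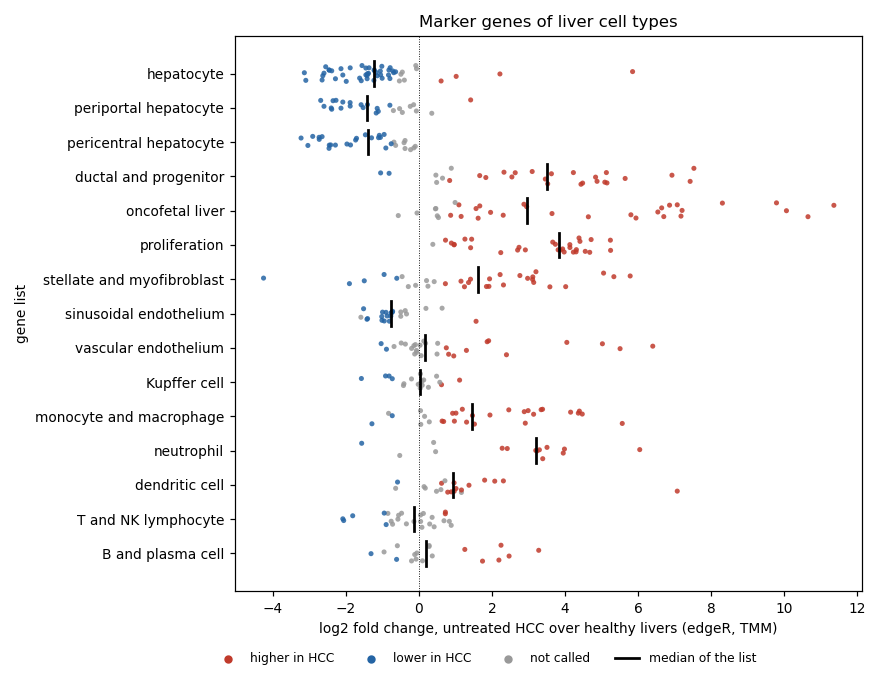
Log2 fold changes (x axis, untreated HCC over healthy livers, edgeR) of every tested member of 15 marker lists (y axis). Each point is a gene, colored by its call, and bars mark list medians, genes at the counting floor being drawn at their fitted value. Hepatocyte and sinusoidal endothelial medians lie left of 0 and those of ductal, oncofetal, cycle and neutrophil genes right of it, at 3.50, 2.95, 3.84 and 3.22. With floor genes at their bound, the ductal, oncofetal and neutrophil medians are 2.59, 2.88 and 2.35.

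Stellate cells are the pericytes of the liver, which store retinoids at rest and become matrix-producing myofibroblasts when activated. Their list rose in 21 of 32 members and fell in 5 (median log2 fold change 1.63). Acta2, the smooth-muscle actin of myofibroblasts, held 51.2, 67.2 and 47.97 in the healthy livers and 437, 312 and 382 in the HCC livers (log2 fold change 2.77 ± 0.226 SE, adjusted p = 7e-07). Lox, the collagen cross-linking oxidase, held 4.88, 11 and 3.198 in the healthy livers and 314, 243 and 217 in the HCC livers (log2 fold change 5.34 ± 0.334 SE, adjusted p = 9.2e-08, or 5.96 without healthy replicate 2). Tnc, the matrix glycoprotein tenascin C, held 8.54, 12.2 and 11.7 in the healthy livers and 189, 165 and 180.5 in the HCC livers (log2 fold change 4.02 ± 0.269 SE, adjusted p = 1.5e-07). All 3 activation genes were several-fold above the healthy range in each HCC liver. Lrat, the enzyme that esterifies retinol for storage, held 580.5, 934 and 938 in the healthy livers and 460, 222 and 191 in the HCC livers (log2 fold change -1.50 ± 0.315 SE, adjusted p = 0.0013). Hand2, a stellate transcription factor, held 101, 137 and 136 in the healthy livers and 54.5, 63.4 and 74.7 in the HCC livers (log2 fold change -0.95 ± 0.197 SE, adjusted p = 0.0012). Des, the intermediate filament desmin, and Reln, reelin, both markers of resting and activated stellate cells alike, did not pass (-0.29 and 0.25, named after their values were seen). Ecm1, a secreted glycoprotein that hepatocytes also make, held 1917, 1859 and 2044 in the healthy livers and 490.1, 418 and 644 in the HCC livers (log2 fold change -1.91 ± 0.137 SE, adjusted p = 2.5e-07).

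Endothelial markers were read as a sinusoidal and a vascular list. Sinusoidal endothelium is fenestrated and scavenging, and 15 of its 23 tested markers fell, against 1 that rose (median log2 fold change -0.77). With total-count scaling 3 higher and 5 lower were called (median -0.35). The list's share of counts overlapped between the groups, at 0.1102% in the healthy and 0.107% in the HCC livers (exact permutation p = 0.7). Clec4g, a lectin of these cells, held 1658, 1706 and 1653 in the healthy livers and 817, 659 and 996 in the HCC livers (log2 fold change -1.02 ± 0.124 SE, adjusted p = 1.7e-05). Bmp2, the ligand by which they control hepatocyte hepcidin, held 473, 581 and 529.8 in the healthy livers and 231, 145 and 214 in the HCC livers (log2 fold change -1.42 ± 0.196 SE, adjusted p = 4.9e-05). Both were below the healthy range in each HCC liver. Lyve1, another member, was not called with all livers. It was called higher without HCC replicate 3 (0.75 on the log2 scale) or without healthy replicate 1 (0.84). The member that rose was Flt4, the VEGF receptor of lymphatic and sinusoidal endothelium, at 699, 944 and 765 in the healthy livers and 2411, 2181 and 2529 in the HCC livers (log2 fold change 1.56 ± 0.119 SE, adjusted p = 4e-07). Of 28 vascular endothelial markers, 11 rose and 2 fell (median 0.16), and their share of counts was 0.0518% in the healthy and 0.0599% in the HCC livers, without overlap. Those that fell were Cldn5, a tight-junction claudin (-0.89), and Insr, the insulin receptor, which hepatocytes also express (-1.04). The pan-endothelial members Pecam1, Cdh5 and Vwf were not called. Pecam1, the junction protein CD31, held 504, 693 and 574 in the healthy livers and 606, 621 and 713 in the HCC livers (adjusted p = 0.4). Cdh5, VE-cadherin, held 733, 880.1 and 696 in the healthy livers and 810.1, 772 and 823 in the HCC livers (adjusted p = 0.69). Vwf, von Willebrand factor, held 228, 212 and 198 in the healthy livers and 216, 204 and 188 in the HCC livers (adjusted p = 0.71). All 3 overlapped between the groups. Some of the members that rose did so from very low levels. Esm1, endocan, held 1.22, 1.22 and 2.13 and 145, 174 and 109 (90.3-fold, exact 95% counting interval 35 to 333), and Apln, the peptide apelin, held 0, 0 and 3.198 and 45.5, 78.2 and 51.5 (49.9-fold, exact 95% counting interval 16.8 to 244, with all healthy counts in replicate 3). Its receptor Aplnr rose too, from 3.66, 3.67 and 3.198 to 79.1, 34.8 and 65.95 (17.2-fold, exact 95% counting interval 8.89 to 38.1). Cd34, a marker of capillary rather than sinusoidal endothelium, held 56.1, 58.7 and 33.04 in the healthy livers and 245, 251 and 279 in the HCC livers (log2 fold change 2.40 ± 0.205 SE, adjusted p = 1e-06).

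Macrophage markers were read as a resident and a recruited list. For Kupffer cells, the resident macrophages, 2 of 19 markers rose and 4 fell (median log2 fold change 0.036), a lead that turned to 5 higher and 1 lower with total-count scaling. Clec4f, the most specific of them, held 3584, 2852 and 3321 in the healthy livers and 2571, 2053 and 2713 in the HCC livers, and its log2 fold change of -0.41 did not pass the fold threshold. Timd4, a receptor of long-lived Kupffer cells, held 278, 222 and 248 in the healthy livers and 141, 134 and 175 in the HCC livers (log2 fold change -0.73 ± 0.184 SE, adjusted p = 0.0045). Cd163, the hemoglobin scavenger receptor, held 306, 359 and 366 in the healthy livers and 145, 67.8 and 133 in the HCC livers (log2 fold change -1.58 ± 0.224 SE, adjusted p = 6.3e-05). The groups were separated for all 3 genes. C1qa was among the members that rose, but not called without HCC replicate 2 at 0.58 or healthy replicate 2 at 0.51 or healthy replicate 3 at 0.57. C1qb and C1qc were not called with all livers, but were called higher without healthy replicate 1 (0.67 and 0.60). In the list of monocyte-derived cells, 22 of 29 rose and 2 fell (median 1.47, or 1.39 with floor genes at their bound). The share of counts overlapped, at 1.76% in the healthy and 1.63% in the HCC livers, and Apoe took most of it. Trem2, a receptor of lipid-associated macrophages, held 10.98, 8.56 and 3.198 in the healthy livers and 53.6, 70.4 and 75.4 in the HCC livers (log2 fold change 3.14 ± 0.376 SE, adjusted p = 1.5e-05). Mmp12, macrophage elastase, held 8.54, 9.78 and 9.59 in the healthy livers and 179, 201 and 204 in the HCC livers (log2 fold change 4.37 ± 0.219 SE, adjusted p = 2.2e-08). These were low in counts but separated in all livers. Cd14, the endotoxin co-receptor that hepatocytes can also express, held 82.9, 80.7 and 78.9 in the healthy livers and 4159, 4839 and 2544 in the HCC livers (log2 fold change 5.57 ± 0.267 SE, adjusted p = 1.6e-08). The members that fell were Apoe and F10, which hepatocytes make in quantity and which were named after their values were seen. Fn1, fibronectin, did not pass, at 56397, 57658 and 55043 in the healthy livers and 55040.4, 66218 and 53057 in the HCC livers (adjusted p = 0.8).

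Other leukocyte lists were small in counts. Neutrophil markers rose in 10 of 14 tested members of the 24 in the table and fell in 1 (median 3.22, or 2.35 with floor genes at their bound). Of the 14, 6 were at or under the counting floor in a group, so the rise rests partly on genes with few counts. The list's share of counts went the other way, from 0.0294% to 0.0213% without overlap. Its most abundant member was the one that fell, Wfdc21, at 6138, 4737 and 6241 in the healthy livers and 2225, 1544 and 2002 in the HCC livers (log2 fold change -1.57 ± 0.154 SE, adjusted p = 2.9e-06). S100a9, a calgranulin subunit, held 24.4, 4.89 and 2.13 in the healthy livers and 130, 129 and 94.2 in the HCC livers (log2 fold change 3.51 ± 0.505 SE, adjusted p = 7.2e-05, or 5.04 without healthy replicate 1). Csf3r, the G-CSF receptor, held 53.7, 26.9 and 27.7 in the healthy livers and 186, 218 and 175 in the HCC livers (log2 fold change 2.42 ± 0.255 SE, adjusted p = 5.2e-06). S100a9 and Csf3r were low in all livers, and the defining granule genes Camp, Ngp and Elane were among the 24 but not among those that passed the count filter. Of 20 dendritic cell genes, 12 rose and 1 fell. Cd74, the invariant chain of MHC class II, held 3941, 2127 and 2462 in the healthy livers and 5612, 5854 and 5785 in the HCC livers (log2 fold change 1.02 ± 0.1801 SE, adjusted p = 0.00038), while Clec9a, which marks the cross-presenting subset, did not pass (-0.64). T and NK cell genes gave 2 higher and 5 lower of 25, against 3 higher and 3 lower with total-count scaling. Their share of counts was 0.0143% in the healthy and 0.007504% in the HCC livers, without overlap, and 1 member took most of the healthy share. The T-cell receptor subunit Cd3e held 18.3, 17.1 and 10.7 in the healthy livers and 24.6, 15.6 and 18.8 in the HCC livers and overlapped between groups (adjusted p = 0.48). Zap70, a T-cell kinase, fell from 146, 158 and 161 to 42.7, 26.1 and 42.03 (log2 fold change -2.06 ± 0.245 SE, adjusted p = 1.4e-05) although the CD3 genes did not pass. Among B and plasma cell genes, 6 of 18 rose and 2 fell, against 8 higher and 0 lower with total-count scaling. Igkc, the kappa light chain of antibody, held 36.6, 22 and 43.7 in the healthy livers and 155, 283 and 55.8 in the HCC livers (log2 fold change 2.25 ± 0.542 SE, adjusted p = 0.0034, or 1.60 without HCC replicate 3), and HCC replicate 4 lay close to the healthy range.

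A few lists stood for tissue that a liver sample can carry along. Of 10 red-cell and platelet genes, 7 rose and 2 fell. The hemoglobin gene Hbb-bs rose from 1104, 1502 and 1747 to 2417, 2383 and 3126 (log2 fold change 0.86 ± 0.155 SE, adjusted p = 0.0004). Those that fell were Klf1, an erythroid factor, at 107, 86.8 and 78.9 in the healthy livers and 10.9, 14.8 and 38.4 in the HCC livers (log2 fold change -2.05 ± 0.461 SE, adjusted p = 0.0021, or -2.81 without HCC replicate 4), and Car1, a carbonic anhydrase of red cells, at 111, 155 and 145 in the healthy livers and 11.8, 16.5 and 40.6 in the HCC livers (log2 fold change -2.54 ± 0.368 SE, adjusted p = 7.6e-05, or -3.26 without HCC replicate 4). In both, HCC replicate 4 lay nearest to the healthy range. Of 5 tested fat-cell genes, 4 rose and 1 fell. The defining markers Adipoq, which encodes adiponectin, and Plin1 were too low to be tested, Adipoq at 7.32, 2.44 and 4.26 in the healthy livers and 0, 0 and 0.725 in the HCC livers and Plin1 at 4.88, 0 and 0 in the healthy livers and 0, 0 and 0.725 in the HCC livers. The member that fell was Car3, a carbonic anhydrase that hepatocytes also express, at 35559.7, 52474 and 58866 in the healthy livers and 19508, 15684 and 26691 in the HCC livers (log2 fold change -1.25 ± 0.2201 SE, adjusted p = 0.00036). The list's share of counts was 0.2201% in the healthy and 0.131% in the HCC livers, with overlap. The lipid droplet genes Cidec and Cidea rose, Cidec from 65.9, 69.7 and 73.5 to 971, 454 and 769 (log2 fold change 3.39 ± 0.377 SE, adjusted p = 8.3e-06), and Cidea from no count to 82.7, 29.5 and 63.05 (at least 16.7-fold higher). The 2 droplet genes were separated between the groups. Fabp4, a fatty-acid carrier of fat cells, macrophages and capillaries, held 78.1, 67.2 and 93.8 in the healthy livers and 476, 404 and 365 in the HCC livers (log2 fold change 2.37 ± 0.203 SE, adjusted p = 1e-06). None of 5 tested pancreatic acinar genes was called by edgeR or by DESeq2 (1 had an unadjusted edgeR p under 0.05), but without the filter on low counts 15 higher and 1 lower of 17 were. The protease gene Prss2 held 0, 0 and 0 in the healthy livers and 17.3, 4.34 and 38.4 in the HCC livers (adjusted p = 0.26), and HCC replicate 4 held the most of it. Of 9 mesothelial genes, 1 rose and 2 fell, against 3 higher and 0 lower with total-count scaling, and their share of counts was higher in the HCC livers without overlap (0.00131% and 0.00179%). The calls of Wt1 (higher) and Upk3b (lower) were lost when any 1 liver but healthy replicate 3 was left out. The part of these cells in the lists above was not tested.

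Among secreted proteins, plasma carriers fell in 19 of 35 members and rose in 9 (median log2 fold change -0.65). The 2 hormone carriers of the serpin family moved apart. Serpina7, thyroxine-binding globulin, held 371, 359 and 242 in the healthy livers and 3557, 2641 and 2636 in the HCC livers (log2 fold change 3.19 ± 0.205 SE, adjusted p = 1.1e-07). Serpina6, the cortisol carrier transcortin, held 10451, 15930 and 14179 in the healthy livers and 1322, 1855 and 2453 in the HCC livers (log2 fold change -2.85 ± 0.225 SE, adjusted p = 5.4e-07). The groups did not overlap for either carrier. A2m, a broad protease inhibitor of plasma, was almost undetected in the healthy livers (0, 0 and 2.13) and held 585, 817 and 254 in the HCC livers, a rise of 686-fold, exact 95% counting interval 190 to 5666, with all healthy counts in replicate 3. Major urinary protein genes, which share near-identical sequence so that reads may be split among copies, also diverged: Mup2 held 538, 639 and 565 in the healthy livers and 28.2, 25.2 and 49.3 in the HCC livers (log2 fold change -4.06 ± 0.343 SE, adjusted p = 9.3e-07) while Mup20 rose as given above.

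**Figure D2:**
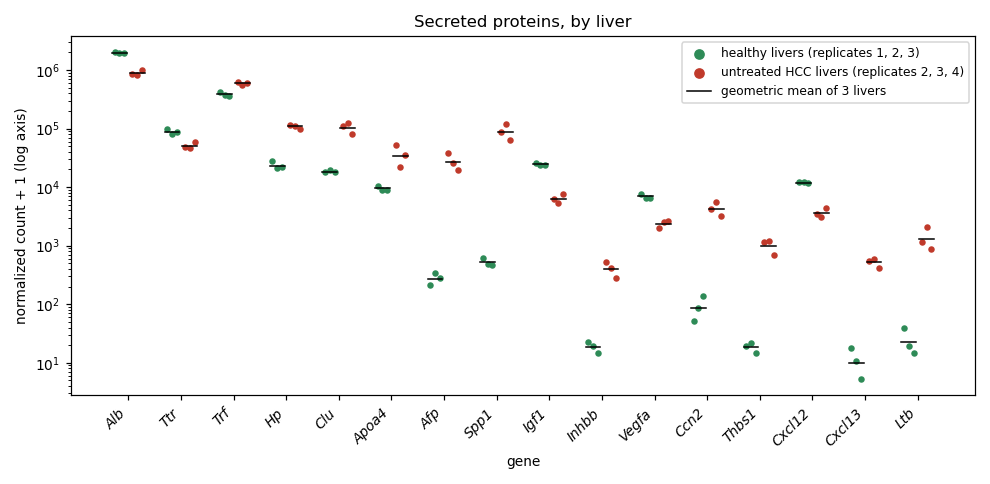
Normalized count plus 1 (y axis, log scale) of 16 secreted-protein genes (x axis) in each of 3 healthy and 3 untreated HCC livers, with bars at the geometric mean. For every gene shown the 2 sets of livers do not overlap, and Spp1 goes from 619.6, 479 and 460.5 in the healthy to 88189, 117898 and 62830.4 in the HCC livers.

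Apolipoproteins and plasma lipases fell in 19 of 30 members and rose in 4. Apoa2, a structural protein of HDL, held 144339, 127393 and 147162 in the healthy livers and 44828, 39920.4 and 57326 in the HCC livers (log2 fold change -1.56 ± 0.166 SE, adjusted p = 5.6e-06). Apoa5, an activator of triglyceride clearance, held 39671, 33514 and 32516 in the healthy livers and 6989.8, 5974 and 11617 in the HCC livers (log2 fold change -2.10 ± 0.213 SE, adjusted p = 3.8e-06). Pon1, the HDL-borne paraoxonase, held 16508, 18599.6 and 18448 in the healthy livers and 2566, 2828 and 4622 in the HCC livers (log2 fold change -2.42 ± 0.222 SE, adjusted p = 1.7e-06). HCC replicate 4 was the least reduced liver for all 3. Apoa4, the apolipoprotein induced in steatotic liver, went the other way at 10482, 9060.2 and 9004 in the healthy livers and 53044, 21891 and 34774 in the HCC livers (log2 fold change 1.94 ± 0.308 SE, adjusted p = 0.00016), and its HCC livers spread more widely than the healthy ones. Clu, the chaperone clusterin or apolipoprotein J, held 17760.3, 19227 and 18293 in the healthy livers and 111670.1, 124333 and 80706 in the HCC livers (log2 fold change 2.52 ± 0.189 SE, adjusted p = 3.5e-07). Its HCC livers were all several-fold above the healthy ones. Lpl, the lipoprotein lipase that adult hepatocytes hardly express, held 243, 158 and 178 in the healthy livers and 1505, 1210.1 and 1301 in the HCC livers (log2 fold change 2.80 ± 0.182 SE, adjusted p = 1.3e-07). Lipc, the hepatic lipase, held 5442, 5367 and 5310.4 in the healthy livers and 1302, 1214 and 1892 in the HCC livers (log2 fold change -1.87 ± 0.176 SE, adjusted p = 2.1e-06). The 2 lipases thus changed in opposite directions in each liver.

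Coagulation and fibrinolysis genes fell in 20 of 36 and rose in 8, against 10 higher and 12 lower with total-count scaling. F2, prothrombin, held 39389, 37489 and 37694 in the healthy livers and 17954, 17381 and 21296 in the HCC livers (log2 fold change -1.02 ± 0.127 SE, adjusted p = 2.2e-05). F11, factor XI, held 3198, 3052 and 2698 in the healthy livers and 859, 819 and 1218 in the HCC livers (log2 fold change -1.62 ± 0.212 SE, adjusted p = 3.1e-05). Klkb1, plasma prekallikrein, held 6616, 6082 and 6225 in the healthy livers and 1242, 1374 and 2297 in the HCC livers (log2 fold change -1.94 ± 0.204 SE, adjusted p = 5.1e-06). These 3 zymogens of hepatocytes were separated between the groups. Plat, tissue plasminogen activator, held 18.3, 15.9 and 15.99 in the healthy livers and 413, 392 and 233 in the HCC livers (log2 fold change 4.36 ± 0.2898 SE, adjusted p = 1.4e-07). Anxa2, a cell-surface docking protein for it, held 249, 247 and 265 in the healthy livers and 4989, 3933 and 3739 in the HCC livers (log2 fold change 4.05 ± 0.171 SE, adjusted p = 6.7e-09). HCC replicate 4 was the lowest HCC liver for Plat and Anxa2 and still above every healthy liver. Fga, Fgb and Fgg, the fibrinogen chains, had log2 fold changes near the threshold (-0.54, -0.69 and -0.64, of which the first did not pass and all 3 were named after their values were seen).

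Complement genes fell in 15 of 34 and rose in 5 with TMM scaling, against 8 higher and 7 lower with total-count scaling. C8a and C8g, 2 subunits of the same membrane-attack protein, moved apart. C8a held 3060.1, 3659.8 and 4571 in the healthy livers and 10625, 7018 and 9457 in the HCC livers (log2 fold change 1.26 ± 0.175 SE, adjusted p = 5.2e-05). C8g held 6079, 6587 and 6758 in the healthy livers and 2041, 1761 and 2559 in the HCC livers (log2 fold change -1.61 ± 0.142 SE, adjusted p = 1.3e-06). C6, another membrane-attack component, held 448, 388 and 435 in the healthy livers and 2206, 969.5 and 1235 in the HCC livers (log2 fold change 1.79 ± 0.251 SE, adjusted p = 5.7e-05), with HCC replicate 2 the highest. Masp2 and Mbl2, the protease and the mannose-binding lectin that start the lectin pathway, fell. Masp2 went from 4146, 4107 and 4241 to 1290.1, 1214 and 1702 (log2 fold change -1.57 ± 0.128 SE, adjusted p = 6.9e-07). Mbl2 went from 15414, 15091 and 14732 to 5162, 4225 and 5992 (log2 fold change -1.56 ± 0.128 SE, adjusted p = 7.6e-07). None of these overlapped between groups.

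Acute-phase genes, which hepatocytes raise in inflammation, were split, 12 higher and 15 lower of 36 with TMM scaling, against 14 higher and 8 lower with total-count scaling. Saa1, serum amyloid A1, held 349, 209 and 228 in the healthy livers and 1065, 1009 and 1074 in the HCC livers (log2 fold change 2.00 ± 0.193 SE, adjusted p = 2.6e-06). Saa2 held 226, 91.7 and 109.8 in the healthy livers and 662, 651 and 689.9 in the HCC livers (log2 fold change 2.23 ± 0.2398 SE, adjusted p = 6.2e-06). Saa3, the extrahepatic form, overlapped between groups at 82.9, 51.3 and 83.1 in the healthy livers and 71.8, 75.6 and 99.3 in the HCC livers (adjusted p = 0.63), and Saa4, the constitutive form, fell from 5763, 6851 and 7150.2 to 2158, 2114 and 2959.8 (log2 fold change -1.45 ± 0.176 SE, adjusted p = 1.7e-05). The members of this family thus did not move together. Hamp, the iron hormone hepcidin, held 37026, 30450.5 and 29588 in the healthy livers and 4274, 2963 and 7446 in the HCC livers (log2 fold change -2.72 ± 0.274 SE, adjusted p = 3.6e-06). Serpina3k, a protease inhibitor, held 208006, 125466 and 125739 in the healthy livers and 24634, 14410.4 and 44098 in the HCC livers (log2 fold change -2.46 ± 0.363 SE, adjusted p = 8.6e-05). HCC replicate 4 retained the most of both. Il1rn, the secreted antagonist of interleukin 1, held 43.9, 42.8 and 36.2 in the healthy livers and 474, 522 and 285 in the HCC livers (log2 fold change 3.38 ± 0.266 SE, adjusted p = 5.2e-07).

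Serpins as a family had 14 higher and 17 lower members of 37 tested, against 15 higher and 14 lower with total-count scaling. Of the alpha-1-antitrypsin genes, near-identical copies whose reads may be shared, 2 named members fell. Serpina1c held 11988, 8005 and 10638 in the healthy livers and 1103, 813 and 1654 in the HCC livers (log2 fold change -3.10 ± 0.265 SE, adjusted p = 1e-06). Serpina1e held 290.3, 257 and 287 in the healthy livers and 23.6, 28.7 and 28.99 in the HCC livers (log2 fold change -3.35 ± 0.211 SE, adjusted p = 9.4e-08). Clade b holds intracellular inhibitors of granzymes and cathepsins. Serpinb6b held 36.6, 24.4 and 36.2 in the healthy livers and 1029, 718 and 648 in the HCC livers (log2 fold change 4.61 ± 0.238 SE, adjusted p = 2.5e-08), and Serpinb9e rose from no count to 82.7, 34.8 and 71.02 (at least 17.9-fold higher). Serpine2, protease nexin 1, held 58.5, 55.01 and 65.02 in the healthy livers and 734, 825 and 385 in the HCC livers (log2 fold change 3.44 ± 0.308 SE, adjusted p = 1.4e-06).

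Endocrine products of the liver fell somewhat more often than they rose, 16 against 13 of 38 with TMM scaling but 14 higher and 12 lower with total-count scaling. Among those that fell, Igf1, the growth-hormone-dependent growth factor, held 26149, 23649 and 23804 in the healthy livers and 6357, 5419 and 7523 in the HCC livers (log2 fold change -1.93 ± 0.161 SE, adjusted p = 8.3e-07). Igfals, the subunit that keeps IGF1 in the circulation, held 4907, 4016 and 4509.9 in the healthy livers and 534, 763 and 865 in the HCC livers (log2 fold change -2.63 ± 0.2202 SE, adjusted p = 8.4e-07). No HCC liver reached the healthy range of either. Among those that rose, Fgf21, a hormone of fasting, held 37.8, 23.2 and 7.46 in the healthy livers and 304, 255 and 231 in the HCC livers (log2 fold change 3.55 ± 0.422 SE, adjusted p = 1.4e-05). Gdf15, a stress-induced hormone, held 142, 19.6 and 25.6 in the healthy livers and 454, 464 and 310.2 in the HCC livers (log2 fold change 2.73 ± 0.484 SE, adjusted p = 0.00037, or 4.15 without healthy replicate 1), with healthy replicate 1 above the other 2 healthy livers. Inhbb, the activin B subunit, held 21.9, 18.3 and 13.9 in the healthy livers and 516, 420.5 and 278 in the HCC livers (log2 fold change 4.49 ± 0.284 SE, adjusted p = 9.8e-08). Each of the 3 was above its healthy range in every HCC liver. Fetub, a plasma protease inhibitor, held 13133, 11031 and 10234 in the healthy livers and 2244, 2181 and 3504 in the HCC livers (log2 fold change -2.12 ± 0.183 SE, adjusted p = 1.1e-06), and Igfbp1, an insulin-suppressed IGF carrier, overlapped between groups at 1714, 754 and 795 in the healthy livers and 1181, 1072 and 549 in the HCC livers (adjusted p = 0.62).

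Ligands of the EGF family rose in 6 of 8 tested members and fell in none. Tgfa, transforming growth factor alpha, held 395, 424 and 392 in the healthy livers and 1696, 1545 and 1331 in the HCC livers (log2 fold change 1.92 ± 0.137 SE, adjusted p = 2.4e-07). Nrg1, the ligand neuregulin 1, held 9.76, 14.7 and 14.9 in the healthy livers and 609, 395 and 472 in the HCC livers (log2 fold change 5.21 ± 0.286 SE, adjusted p = 4e-08). Btc, betacellulin, held 19.5, 28.1 and 26.6 in the healthy livers and 158, 175 and 117 in the HCC livers (log2 fold change 2.59 ± 0.235 SE, adjusted p = 1.6e-06). No HCC liver overlapped a healthy liver for these 3. Egf itself held 30.5, 36.7 and 34.1 in the healthy livers and 25.5, 37.4 and 21.7 in the HCC livers and did not pass (adjusted p = 0.51). Of 29 ligands of vessel growth and guidance, 21 rose and 3 fell. The main vascular growth factor Vegfa was among those that fell, with 7659, 6616 and 6565 in the healthy livers and 2035, 2539 and 2591 in the HCC livers (log2 fold change -1.54 ± 0.114 SE, adjusted p = 3.1e-07), while its relatives Vegfc and Vegfd rose (0.92 and 1.55 on the log2 scale). Ccn2, a matricellular target of YAP and TGF-beta, held 51.2, 85.6 and 136 in the healthy livers and 4303, 5472 and 3239.5 in the HCC livers (log2 fold change 5.56 ± 0.308 SE, adjusted p = 4.4e-08). Thbs1, thrombospondin 1, an inhibitor of vessel growth, held 18.3, 20.8 and 13.9 in the healthy livers and 1174, 1206 and 685 in the HCC livers (log2 fold change 5.86 ± 0.292 SE, adjusted p = 2.1e-08). These 3 were separated in every liver. Slit2, a guidance ligand, rose from 2.44, 2.44 and 2.13 to 138, 149 and 63.05 (48.5-fold, exact 95% counting interval 22.1 to 133). Thus the angiogenic list rose in number while its most studied member fell in all 3 HCC livers.

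In the TGF-beta superfamily 16 of 33 rose and 8 fell, against 18 higher and 4 lower with total-count scaling. Tgfb2 held 7.32, 3.67 and 19.2 in the healthy livers and 231, 261 and 205 in the HCC livers (log2 fold change 4.46 ± 0.379 SE, adjusted p = 9.6e-07, or 5.36 without healthy replicate 3). Tgfb3 held 23.2, 14.7 and 41.6 in the healthy livers and 248, 195 and 194 in the HCC livers (log2 fold change 2.98 ± 0.302 SE, adjusted p = 3.9e-06). Bmp7, a BMP ligand of epithelia, held 14.6, 6.11 and 17.1 in the healthy livers and 255, 410 and 262 in the HCC livers (log2 fold change 4.58 ± 0.3504 SE, adjusted p = 4.2e-07). All 3 were low in the healthy livers and separated. Bmp2 and Gdf2 (BMP9), made by liver endothelium and stellate cells, fell, Gdf2 from 543, 534 and 534 to 218, 148 and 237 (log2 fold change -1.42 ± 0.151 SE, adjusted p = 5.9e-06). Secreted Wnt regulators gave 5 higher and 5 lower of 15, against 6 higher and 2 lower with total-count scaling. Notum, a hepatocyte enzyme that inactivates Wnt, held 1098, 944 and 1029 in the healthy livers and 155, 221 and 401 in the HCC livers (log2 fold change -1.97 ± 0.282 SE, adjusted p = 6.8e-05). Of 6 Fgf genes that passed the filter, 2 rose and 1 fell, and Fgf1, the paracrine form, held 3210.1, 3166 and 3119 in the healthy livers and 392, 405 and 615 in the HCC livers (log2 fold change -2.75 ± 0.1702 SE, adjusted p = 8.6e-08), opposite to Fgf21. Fgf1 took most of the counts of the Fgf list, whose share was 0.0149% in the healthy and 0.00525% in the HCC livers.

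Chemokines rose in 19 of 31 and fell in 3 (median log2 fold change 2.59, or 1.95 with floor genes at their bound). Their share of counts went the other way without overlap, at 0.0662% in the healthy and 0.0578% in the HCC livers, and the most abundant member, Cxcl12, was among those that fell. Cxcl13, which attracts B cells, held 17.1, 9.78 and 4.26 in the healthy livers and 554, 603 and 417 in the HCC livers (log2 fold change 5.67 ± 0.347 SE, adjusted p = 8e-08). Cxcl3 and Cxcl2, which attract neutrophils, rose from almost no counts: Cxcl3 had none in the healthy livers and 133, 99.9 and 97.8 in the HCC livers (at least 31.4-fold higher), and Cxcl2 went from 2.44, 0 and 0 to 60.01, 69.5 and 50.01 (76.3-fold, exact 95% counting interval 20.9 to 634, with all healthy counts in replicate 1, or 48.5-fold without healthy replicate 3). The homeostatic chemokine Cxcl12, made by liver endothelium and stellate cells, held 12072, 12218 and 11656 in the healthy livers and 3446, 3134 and 4409.9 in the HCC livers (log2 fold change -1.71 ± 0.152 SE, adjusted p = 1.3e-06). Its drop was seen in every HCC liver. Cxcl11, an interferon-induced T-cell attractant, held 176, 128 and 90.6 in the healthy livers and 21.8, 29.5 and 39.9 in the HCC livers (log2 fold change -2.09 ± 0.315 SE, adjusted p = 0.0001). Interleukins and related cytokines rose in 9 of 18 tested and fell in 2, against 10 higher and 0 lower with total-count scaling. Lif, an interleukin 6 family cytokine, rose from 1.22, 1.22 and 4.26 to 226, 187 and 147 (78.9-fold, exact 95% counting interval 36 to 216, or 150-fold without healthy replicate 3). Clcf1, of the same family, held 41.5, 7.33 and 29.9 in the healthy livers and 380, 493 and 296 in the HCC livers (log2 fold change 3.88 ± 0.395 SE, adjusted p = 4e-06). Il34, a ligand of the macrophage growth factor receptor, held 17.1, 11 and 27.7 in the healthy livers and 192, 316 and 204 in the HCC livers (log2 fold change 3.64 ± 0.312 SE, adjusted p = 1e-06). These 3 cytokines were low in the healthy livers and separated. TNF ligands rose in 3 of 7 and fell in 1, against 5 higher and 0 lower with total-count scaling. Ltb, the lymphotoxin subunit that signals to the noncanonical NF-κB pathway, held 37.8, 18.3 and 13.9 in the healthy livers and 1159, 2121 and 882 in the HCC livers (log2 fold change 5.91 ± 0.427 SE, adjusted p = 2.6e-07), with HCC replicate 3 the highest. Tnf itself held 14.6, 0 and 2.13 in the healthy livers and 71.8, 93.8 and 43.5 in the HCC livers (log2 fold change 3.64 ± 0.682 SE, adjusted p = 0.00058, or 5.78 without healthy replicate 1).

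Matrix genes were mostly higher. Proteases and inhibitors of the matrix rose in 29 of 40 and fell in 3, and non-collagen matrix genes rose in 48 of 62 and fell in 4. Timp1, a metalloprotease inhibitor, rose from 2.44, 2.44 and 3.198 to 160, 185 and 126 (57.1-fold, exact 95% counting interval 27.5 to 143), and Mmp13, a collagenase, from 1.22, 2.44 and 1.07 to 50.01, 78.2 and 44.9 (36.7-fold, exact 95% counting interval 14.1 to 136). Mmp14, the membrane-type protease, held 1423, 1309 and 1385 in the healthy livers and 2962, 2862 and 2692 in the HCC livers (log2 fold change 1.05 ± 0.119 SE, adjusted p = 9.7e-06). Each was separated between the groups, from low healthy counts in the first 2 and from well-measured ones in the third. Adamts13, the stellate-cell protease that trims von Willebrand factor, held 552, 566 and 605 in the healthy livers and 168, 139 and 234 in the HCC livers (log2 fold change -1.67 ± 0.2003 SE, adjusted p = 1.6e-05), and Mmp19 fell by less (-0.86). Sparc, a collagen-binding protein, held 1899, 1675 and 1761 in the healthy livers and 18584, 19273 and 15725 in the HCC livers (log2 fold change 3.33 ± 0.169 SE, adjusted p = 2.4e-08). Collagen chains rose in 21 of 31 and fell in 4.

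Secreted lectins and antimicrobial proteins rose in 16 of 24 and fell in 6, against 16 higher and 3 lower with total-count scaling (median 3.35, or 2.38 with floor genes at their bound). Slpi, the leukocyte protease inhibitor of mucosal fluids, held 52.4, 34.2 and 52.2 in the healthy livers and 3227, 3096 and 2700.3 in the HCC livers (log2 fold change 6.01 ± 0.307 SE, adjusted p = 2.4e-08). Its HCC livers lay in a narrow range. Dmbt1, a mucosal scavenger protein, held 1069.6, 963 and 54.4 in the healthy livers and 21.8, 40.8 and 45.7 in the HCC livers (log2 fold change -4.24 ± 1.32 SE, adjusted p = 0.015, but not called without HCC replicate 2 at -3.99), and healthy replicate 3 lay near the HCC livers rather than near the other healthy livers.

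**Figure D3:**
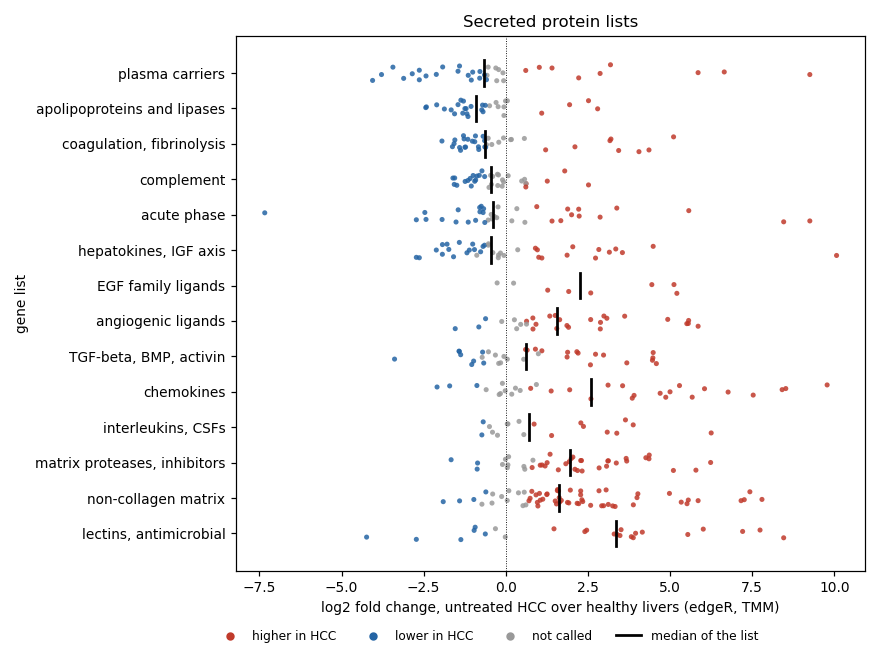
Log2 fold changes (x axis, untreated HCC over healthy livers, edgeR) of the tested members of 14 lists of secreted proteins (y axis), colored by call, with list medians as bars and genes at the counting floor at their fitted value. The 6 upper lists, made mainly by hepatocytes, have medians under 0, from -0.89 to -0.38, and the 8 lower lists medians over 0, from 0.60 to 3.35, the last being 2.38 with floor genes at their bound.

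Receptors for these ligands went both ways. Growth-factor receptors rose in 20 and fell in 14 of 55 (median log2 fold change 0.064), against 26 higher and 10 lower with total-count scaling. Their share of counts was lower in the HCC livers without overlap (0.376% and 0.3204%). Within the EGF receptor family, Egfr held 5815, 4006 and 3731 in the healthy livers and 2127, 2139 and 2851 in the HCC livers (log2 fold change -0.93 ± 0.201 SE, adjusted p = 0.0016). Its partner Erbb3 held 4377, 4464 and 3865 in the healthy livers and 1316, 1243 and 1419.7 in the HCC livers (log2 fold change -1.67 ± 0.0988 SE, adjusted p = 6e-08). Erbb2, another partner, held 30.5, 36.7 and 21.3 in the healthy livers and 106, 126 and 82.6 in the HCC livers (log2 fold change 1.83 ± 0.332 SE, adjusted p = 0.00045). The members of this family thus did not move together, and the groups did not overlap for any of the 3. Ghr, the growth hormone receptor, held 14312, 15809 and 15047 in the healthy livers and 3830.4, 3553 and 4906 in the HCC livers (log2 fold change -1.88 ± 0.162 SE, adjusted p = 1.1e-06). Prlr, the prolactin receptor, held 10580.3, 11148 and 10276 in the healthy livers and 1456, 2028 and 2885 in the HCC livers (log2 fold change -2.33 ± 0.286 SE, adjusted p = 1.9e-05). Neither overlapped between the groups. In the interleukin 6 family Lifr, the LIF receptor, held 11867, 11214 and 12839 in the healthy livers and 2409, 2903 and 3172 in the HCC livers (log2 fold change -2.08 ± 0.196 SE, adjusted p = 2.1e-06). Osmr, the oncostatin M receptor, held 86.6, 85.6 and 63.96 in the healthy livers and 666, 743 and 462 in the HCC livers (log2 fold change 2.99 ± 0.1902 SE, adjusted p = 1e-07). Lifr fell and Osmr rose in each HCC liver. Ddr1, a collagen receptor of epithelia, held 46.4, 40.3 and 39.4 in the healthy livers and 988, 1300.5 and 811 in the HCC livers (log2 fold change 4.62 ± 0.244 SE, adjusted p = 2.9e-08).

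Endocytic receptors rose in 6 and fell in 11 of 25, against 8 higher and 6 lower with total-count scaling. Asgr1, the asialoglycoprotein receptor of hepatocytes, held 9598, 9796 and 9778 in the healthy livers and 3398, 2917 and 4335 in the HCC livers (log2 fold change -1.45 ± 0.136 SE, adjusted p = 2e-06). Pigr, the polymeric immunoglobulin receptor, held 52688, 60572 and 56895 in the healthy livers and 13512, 12825 and 19712 in the HCC livers (log2 fold change -1.89 ± 0.206 SE, adjusted p = 7.1e-06). Cd36, the fatty-acid translocase, rose from 509.8, 634 and 554 to 4358, 3014 and 3936 (log2 fold change 2.73 ± 0.163 SE, adjusted p = 6.4e-08), as did Sort1, the sorting receptor sortilin, from 545, 495 and 509.5 to 1983, 2896 and 1692 (log2 fold change 2.08 ± 0.189 SE, adjusted p = 1.6e-06).

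Liver-enriched transcription factors fell in 13 of 30 and rose in 2, a shallower shift (median log2 fold change -0.48) than that of hepatocyte markers (-1.23), a difference that was not tested. With total-count scaling 2 higher and 6 lower were called, with a median of -0.058. Hnf4a, the nuclear receptor at the center of the network, held 15169, 16207 and 17742 in the healthy livers and 10723, 8406 and 10877 in the HCC livers (log2 fold change -0.71 ± 0.127 SE, adjusted p = 0.00039). Foxa1, a pioneer factor, overlapped between the groups at 369.5, 463 and 496 in the healthy livers and 415, 426 and 370.3 in the HCC livers (adjusted p = 0.48). Cebpa, which opposes hepatocyte growth, held 13409, 11611 and 11651 in the healthy livers and 4240.5, 4475 and 6006 in the HCC livers (log2 fold change -1.32 ± 0.144 SE, adjusted p = 7.4e-06). HCC replicate 4 held the most Cebpa of the HCC livers. Mlxipl, the glucose-sensing factor ChREBP, held 7110.5, 8004 and 8344 in the healthy livers and 1792, 2516 and 3068 in the HCC livers (log2 fold change -1.67 ± 0.1703 SE, adjusted p = 4.1e-06). Klf15, a factor of amino-acid catabolism, held 3048, 3559.5 and 3693 in the healthy livers and 908, 752 and 1155 in the HCC livers (log2 fold change -1.87 ± 0.225 SE, adjusted p = 1.6e-05). No HCC liver reached the healthy range of Cebpa, Mlxipl or Klf15. One riser was Gata6, an endoderm factor, with 259.8, 214 and 209 in the healthy livers and 536, 542 and 381 in the HCC livers (log2 fold change 1.09 ± 0.161 SE, adjusted p = 8.3e-05). The other was Atf5, a stress-responsive factor, with 5385, 3957 and 4874 in the healthy livers and 7441, 6306 and 8040.1 in the HCC livers (log2 fold change 0.62 ± 0.133 SE, adjusted p = 0.0016, but not called without HCC replicate 4 at 0.54 or healthy replicate 2 at 0.49).

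Nuclear receptors fell in 21 of 43 and rose in 5, against 6 higher and 13 lower with total-count scaling. Nr1i3, the xenobiotic receptor CAR, held 3059, 2703 and 2663 in the healthy livers and 231, 310.1 and 572 in the HCC livers (log2 fold change -2.91 ± 0.245 SE, adjusted p = 9.1e-07). Ppara, the receptor that drives fatty-acid oxidation, held 3938, 4278 and 3386 in the healthy livers and 906, 906 and 1262 in the HCC livers (log2 fold change -1.92 ± 0.1597 SE, adjusted p = 8.3e-07). Esr1, the estrogen receptor alpha, held 1853, 2242 and 2031 in the healthy livers and 281, 295 and 307 in the HCC livers (log2 fold change -2.79 ± 0.155 SE, adjusted p = 4.3e-08). Esr1 held nearly equal values in the HCC livers. The groups were separated for these 3 receptors, with HCC replicate 4 the highest HCC liver for Nr1i3. Pparg, the lipogenic receptor, rose from 101, 109 and 98.1 to 311, 289 and 289.9 (log2 fold change 1.53 ± 0.134 SE, adjusted p = 1.2e-06).

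Factors of ducts, progenitors and other epithelia were read by family. Of 10 Sox genes, 3 rose and 1 fell. Sox9, the duct and progenitor factor, held 90.2, 40.3 and 46.9 in the healthy livers and 1596, 2175 and 1295 in the HCC livers (log2 fold change 4.84 ± 0.298 SE, adjusted p = 8.3e-08). Sox4, a fetal and tumor factor, held 40.2, 66.01 and 65.02 in the healthy livers and 2769, 3569 and 2319 in the HCC livers (log2 fold change 5.65 ± 0.303 SE, adjusted p = 3.3e-08). Sox6 fell from 657, 718 and 619 to 298, 314 and 293 (log2 fold change -1.14 ± 0.127 SE, adjusted p = 8.6e-06), and the endothelial Sox17 did not pass (-0.37). ETS factors rose in 9 of 22 and fell in 2, against 14 higher and 0 lower with total-count scaling. Etv4, a target of RAS-MAPK signaling, rose from 0, 0 and 2.13 to 286, 442 and 243 (411-fold, exact 95% counting interval 113 to 3396, with all healthy counts in replicate 3). Ehf, an ETS factor of epithelia, held 23.2, 18.3 and 21.3 in the healthy livers and 787, 946 and 493 in the HCC livers (log2 fold change 5.14 ± 0.363 SE, adjusted p = 2.2e-07). Elf3, of the same kind, held 34.1, 20.8 and 27.7 in the healthy livers and 797, 533 and 529.8 in the HCC livers (log2 fold change 4.49 ± 0.302 SE, adjusted p = 1.6e-07). All 3 were separated between the groups. Gata, T-box and Runx genes rose in 7 of 12 and fell in 1, against 7 higher and 0 lower with total-count scaling. Tbx1, a T-box factor of the pharyngeal region, was at 6.098, 0 and 0 in the healthy livers and 445, 504 and 259.5 in the HCC livers (202-fold, exact 95% counting interval 86.6 to 625, with all healthy counts in replicate 1, or 129-fold without healthy replicate 3). A mixed list of other factors gave 15 higher and 7 lower of 46, against 22 higher and 3 lower. Insm1, a neuroendocrine zinc finger factor in it, rose from no count to 58.2, 112 and 60.9 (at least 21.96-fold higher). Tbx1 and Insm1 were at or near 0 in the healthy livers.

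**Figure D4:**
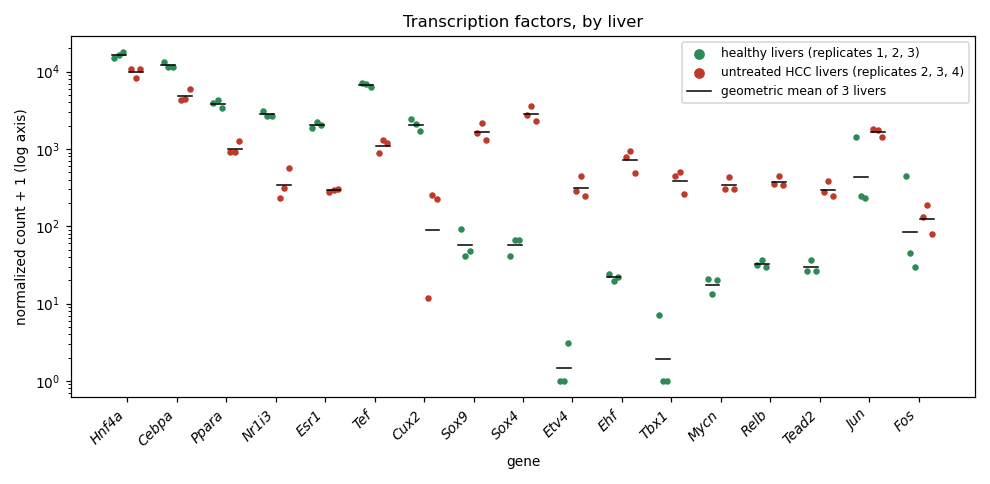
Normalized count plus 1 (y axis, log scale) of 17 transcription factor genes (x axis) in each healthy and untreated HCC liver, with bars at the geometric mean. The groups are separated except for Fos, for which healthy replicate 1 (448, 44.01 and 28.8 in the 3 healthy livers) lies above the HCC livers. For Jun the separation is marginal, with healthy replicate 1 just under the lowest HCC liver. Cux2 is lowest in HCC replicate 2.

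Basic leucine zipper factors gave 15 higher and 8 lower genes of 46. The PAR-domain factors Tef, Dbp and Hlf, known from circadian output, were among those that fell. Tef held 7117, 6983 and 6261 in the healthy livers and 876, 1315 and 1181 in the HCC livers (log2 fold change -2.59 ± 0.144 SE, adjusted p = 4.4e-08). Dbp held 3237, 2688 and 2312 in the healthy livers and 361, 720.2 and 524 in the HCC livers (log2 fold change -2.36 ± 0.213 SE, adjusted p = 1.5e-06). Hlf, named after its values were seen, had a log2 fold change of -1.18. Time of day at harvest was not given in the sources used here, and its part was not tested. Atf3, a stress factor, held 71.96, 69.7 and 72.5 in the healthy livers and 370, 248 and 262 in the HCC livers (log2 fold change 2.03 ± 0.254 SE, adjusted p = 2.2e-05). The immediate-early genes depended on 1 healthy liver. Jun held 1433, 243 and 228 in the healthy livers and 1813, 1770.5 and 1434 in the HCC livers (log2 fold change 1.40 ± 0.5205 SE, adjusted p = 0.036, but not called without HCC replicate 2 at 1.34 or HCC replicate 3 at 1.36 or healthy replicate 2 at 1.01 or healthy replicate 3 at 0.99, or 2.81 without healthy replicate 1). Junb held 2453, 561 and 358 in the healthy livers and 1559, 2015 and 1149 in the HCC livers (adjusted p = 0.43). Fos held 448, 44.01 and 28.8 in the healthy livers and 131, 186 and 78.99 in the HCC livers (adjusted p = 0.67). Healthy replicate 1 held the most of all 3 among the healthy livers, and the groups overlapped for Junb and Fos. Without that liver Junb was called higher, at 1.76 on the log2 scale. Without it the log2 fold change of Fos was 1.84 and it was called higher (adjusted p = 0.002), the reverse of its sign with all livers. With the replicate number as a block its value was 2.01 (adjusted p = 0.0027).

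Basic helix-loop-helix factors rose in 14 and fell in 8 of 49, against 26 higher and 2 lower with total-count scaling. Their TMM calls were near the shares over all tested genes (22.7% higher and 18.1% lower). The Myc paralogs differed. Mycn held 19.5, 12.2 and 19.2 in the healthy livers and 300, 436 and 300 in the HCC livers (log2 fold change 4.33 ± 0.249 SE, adjusted p = 5.2e-08). Myc held 84.2, 90.5 and 205 in the healthy livers and 252, 178 and 228 in the HCC livers (log2 fold change 0.78 ± 0.315 SE, adjusted p = 0.05, but not called without HCC replicate 2 at 0.68 or HCC replicate 4 at 0.75 or healthy replicate 1 at 0.55 or healthy replicate 2 at 0.58), and healthy replicate 3 overlapped the HCC livers. Mycl fell from 202, 174 and 177 to 100, 115 and 89.9 (log2 fold change -0.86 ± 0.229 SE, adjusted p = 0.0062). So the 3 paralogs gave a rise, an overlap and a fall. Npas2, a paralog of the clock factor CLOCK, rose from 2.44, 3.67 and 4.26 to 214, 121 and 167 (47.7-fold, exact 95% counting interval 25 to 105), and Arnt2, a dimerization partner for factors of this class, rose from no count to 57.3, 89.5 and 43.5 (at least 18.1-fold higher). Both were near or at 0 in the healthy livers. Srebf1, the lipogenic factor SREBP-1, fell from 13224, 12764 and 12324 to 4576, 4496 and 5975 (log2 fold change -1.35 ± 0.201 SE, adjusted p = 9.4e-05). That was opposite to Scd1, the stearoyl-CoA desaturase and a known target of it, which held 57388, 70107 and 63146 in the healthy livers and 271459.8, 182090.5 and 250102 in the HCC livers (log2 fold change 1.88 ± 0.189 SE, adjusted p = 3.5e-06). The STAT, IRF and NF-κB list rose in 8 and fell in 3 of 29, against 12 higher and 0 lower with total-count scaling. Relb and Nfkb2 are the subunits of the noncanonical NF-κB pathway. Relb held 30.5, 35.5 and 28.8 in the healthy livers and 350, 451 and 336 in the HCC livers (log2 fold change 3.58 ± 0.256 SE, adjusted p = 2.4e-07). Nfkb2 held 215, 194 and 207 in the healthy livers and 856, 956 and 701 in the HCC livers (log2 fold change 2.03 ± 0.146 SE, adjusted p = 2.5e-07). They rose in the same livers as their upstream ligand Ltb. Stat3 did not pass the fold threshold (0.34), and Stat5b, which carries the growth hormone signal, fell from 1726, 1595 and 1499 to 989, 949.5 and 1108 (log2 fold change -0.66 ± 0.09003 SE, adjusted p = 4.5e-05).

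Among the remaining factors, cell-cycle regulators rose in 7 of 16 and fell in 1, against 13 higher and 0 lower with total-count scaling, with Foxm1 at 4.88, 13.4 and 19.2 in the healthy livers and 194, 198 and 151 in the HCC livers (log2 fold change 3.81 ± 0.366 SE, adjusted p = 2.5e-06). TEAD, SMAD, GLI and TCF genes rose in 10 and fell in 4 of 27, against 13 higher and 1 lower with total-count scaling. Tead2, a partner of YAP, held 25.6, 35.5 and 25.6 in the healthy livers and 280, 386 and 242 in the HCC livers (log2 fold change 3.39 ± 0.3002 SE, adjusted p = 1.3e-06). Smad9, a BMP effector, held 571, 505 and 343 in the healthy livers and 48.2, 36.5 and 115 in the HCC livers (log2 fold change -2.79 ± 0.374 SE, adjusted p = 3.9e-05, or -3.48 without HCC replicate 4). Homeobox genes outside the Hox clusters were mostly silent, 39 of 132 passing the filter, with 9 higher and 7 lower, against 12 higher and 3 lower with total-count scaling. The TMM calls were close to the shares over all tested genes (22.7% higher and 18.1% lower). Cux2, a factor that is normally high in female liver, held 2427, 2077 and 1726 in the healthy livers and 10.9, 256 and 227 in the HCC livers (log2 fold change -3.64 ± 0.574 SE, adjusted p = 0.00015), and HCC replicate 2 was far below the other HCC livers. Prrx1, a mesenchymal factor, held 6.098, 12.2 and 12.8 in the healthy livers and 103, 89.5 and 99.3 in the HCC livers (log2 fold change 3.20 ± 0.2896 SE, adjusted p = 1.5e-06). Only 7 of 39 Hox genes passed the filter, of which 2 fell and none rose with TMM scaling, against 1 higher and 0 lower with total-count scaling. None was called without the filter on low counts, under glmTreat, or without healthy replicate 2, healthy replicate 3, HCC replicate 2 or HCC replicate 3. Krüppel-like and related factors gave 6 higher and 7 lower of 22, against 8 higher and 5 lower with total-count scaling. Klf6, an early-response factor of stellate cells, held 374, 303 and 296 in the healthy livers and 1191, 958 and 960.3 in the HCC livers (log2 fold change 1.68 ± 0.146 SE, adjusted p = 1.2e-06). Forkhead genes gave 7 higher and 7 lower of 22, against 7 higher and 3 lower with total-count scaling. Of 7 tested factors of epithelial-mesenchymal transition, 2 rose and 2 fell. Snai2 and Snai3 fell (-1.19 and -3.29), and Zeb1 did not pass (-0.25). Snai1 rose, but was not called without HCC replicate 2 at 0.96 or HCC replicate 3 at 1.16 or healthy replicate 1 at 1.21 or healthy replicate 2 at 0.82.

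Transporters of the sinusoidal membrane, through which hepatocytes take up bile acids, drugs and amino acids from blood, fell in 22 of 27 and rose in 1 (median log2 fold change -1.64). Slc10a1, the bile-acid importer NTCP, held 13496, 15756 and 14670.3 in the healthy livers and 1250.1, 1549 and 2669 in the HCC livers (log2 fold change -3.00 ± 0.268 SE, adjusted p = 1.4e-06). Slco1b2, the main organic-anion importer, held 32332, 42598 and 39364 in the healthy livers and 10614, 8245 and 12296 in the HCC livers (log2 fold change -1.88 ± 0.192 SE, adjusted p = 4.2e-06). Slc22a7, an organic-anion transporter, held 1787, 1600.1 and 1954 in the healthy livers and 128, 208 and 507 in the HCC livers (log2 fold change -2.65 ± 0.414 SE, adjusted p = 0.00014, or -3.40 without HCC replicate 4). HCC replicate 4 was the least reduced for all 3, without reaching the healthy range. The riser was Slc13a5, the citrate importer, at 47.6, 37.9 and 26.6 in the healthy livers and 105, 55.6 and 88.4 in the HCC livers (log2 fold change 1.15 ± 0.291 SE, adjusted p = 0.0045). At the canalicular membrane, which exports bile, 8 of 18 fell and 4 rose. Abcb11, the bile salt export pump, held 10133, 11155 and 12142 in the healthy livers and 5513, 4361 and 6532 in the HCC livers (log2 fold change -1.03 ± 0.196 SE, adjusted p = 0.00066), and Abcb4, the phospholipid floppase, overlapped between the groups at 6637, 6406 and 5831 in the healthy livers and 5864, 4419 and 6135 in the HCC livers (adjusted p = 0.2). Abcg5 and Abcg8 form 1 sterol exporter. Abcg5 held 2447, 2722 and 2144 in the healthy livers and 877, 656 and 1034 in the HCC livers (log2 fold change -1.51 ± 0.161 SE, adjusted p = 5.9e-06). Abcg8 held 2194, 2165 and 1744 in the healthy livers and 284, 248 and 612 in the HCC livers (log2 fold change -2.40 ± 0.265 SE, adjusted p = 7.6e-06). Among the 4 members that rose, Abcc4, the export pump MRP4, held 150, 174 and 131 in the healthy livers and 592, 673 and 402 in the HCC livers (log2 fold change 1.87 ± 0.253 SE, adjusted p = 4.2e-05). Its HCC livers were all above the healthy range. Abcb1b, a P-glycoprotein, held 6.098, 9.78 and 17.1 in the healthy livers and 72.7, 74.7 and 73.9 in the HCC livers (log2 fold change 2.71 ± 0.388 SE, adjusted p = 6.9e-05).

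Organic-ion transporters of the Slc22, Slco and Slc10 families fell in 22 of 31 and rose in 4, against 6 higher and 16 lower with total-count scaling. Among the risers, Slco3a1, a widely expressed organic-anion transporter, held 98.8, 88.01 and 101 in the healthy livers and 895, 1134 and 691 in the HCC livers (log2 fold change 3.23 ± 0.232 SE, adjusted p = 2.5e-07). It was above the healthy range in each HCC liver.

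Transporters of sugars and monocarboxylates fell in 10 of 30 and rose in 7, against 12 higher and 6 lower with total-count scaling. Slc5a1, the sodium-coupled glucose importer SGLT1, held 40.2, 29.3 and 17.1 in the healthy livers and 491, 539.5 and 407 in the HCC livers (log2 fold change 4.06 ± 0.246 SE, adjusted p = 7.4e-08). Slc37a4, the glucose-6-phosphate carrier of gluconeogenesis, held 5418, 5819.7 and 6357 in the healthy livers and 1675, 1857 and 2339 in the HCC livers (log2 fold change -1.58 ± 0.165 SE, adjusted p = 4.7e-06). The facilitative glucose transporters of liver and of most tumors, Slc2a2 and Slc2a1, did not pass (-0.54 and 0.46, both named after their values were seen).

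Amino-acid transporters gave 10 higher and 11 lower of 36, against 13 higher and 6 lower with total-count scaling. Slc7a11, the cystine importer xCT, had no count in the healthy livers and 77.3, 94.7 and 66.7 in the HCC livers (at least 22.7-fold higher). Slc7a1, a cationic amino-acid importer, held 18.3, 36.7 and 27.7 in the healthy livers and 165, 248 and 136 in the HCC livers (log2 fold change 2.72 ± 0.2905 SE, adjusted p = 5.9e-06). Slc6a8, the creatine importer, held 93.9, 64.8 and 50.1 in the healthy livers and 657, 669.8 and 554 in the HCC livers (log2 fold change 3.18 ± 0.183 SE, adjusted p = 5.2e-08). The last 3 were low in healthy liver and separated in each HCC liver. Slc38a3, a glutamine transporter, held 52076, 55024 and 49541 in the healthy livers and 8975, 10222 and 13591 in the HCC livers (log2 fold change -2.26 ± 0.212 SE, adjusted p = 2.1e-06). Slc7a2, the hepatic cationic carrier, held 9774, 11789.8 and 11799 in the healthy livers and 2716, 3104 and 2821 in the HCC livers (log2 fold change -1.95 ± 0.186 SE, adjusted p = 2.4e-06). Slc7a1 and Slc7a2, which carry the same substrates, thus moved in opposite directions.

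Carriers of nucleosides and vitamins fell in 7 and rose in 5 of 16, against 5 higher and 3 lower with total-count scaling. Slc19a2, a thiamine importer, held 3359, 3442 and 2974 in the healthy livers and 766, 844 and 924 in the HCC livers (log2 fold change -1.95 ± 0.1102 SE, adjusted p = 4.8e-08). Slc29a1, the nucleoside transporter ENT1, held 6604, 6224 and 6493 in the healthy livers and 1748, 2124 and 2521 in the HCC livers (log2 fold change -1.59 ± 0.124 SE, adjusted p = 4.7e-07). Metal transporters rose in 10 and fell in 4 of 33, against 16 higher and 2 lower with total-count scaling. Slc40a1, the iron exporter ferroportin, held 8003, 6936 and 6263 in the healthy livers and 3667, 3292 and 4281 in the HCC livers (log2 fold change -0.92 ± 0.132 SE, adjusted p = 7.3e-05). Tfr2, the iron-sensing transferrin receptor, held 9977, 9416 and 9224 in the healthy livers and 4332, 4186 and 5546 in the HCC livers (log2 fold change -1.02 ± 0.126 SE, adjusted p = 1.9e-05). Slc41a2, a magnesium transporter, held 199, 278 and 404 in the healthy livers and 1702, 1311 and 1389 in the HCC livers (log2 fold change 2.31 ± 0.224 SE, adjusted p = 2.6e-06). Its healthy livers spread but stayed below. Slc39a4, a zinc importer, held 1037, 836 and 858 in the healthy livers and 2440.3, 2243 and 2002 in the HCC livers (log2 fold change 1.29 ± 0.129 SE, adjusted p = 3.4e-06). Slc40a1 and Tfr2 were lower and Slc41a2 and Slc39a4 higher in all HCC livers.

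Mitochondrial carriers fell in 22 of 50 and rose in 7 with TMM scaling (median -0.42), against 9 higher and 11 lower with total-count scaling (median 0.001). Slc25a13, the aspartate-glutamate carrier citrin that serves the urea cycle, held 6003, 6814 and 6378 in the healthy livers and 2157, 1807 and 2519.9 in the HCC livers (log2 fold change -1.57 ± 0.135 SE, adjusted p = 1.1e-06). Slc25a24, an ATP-magnesium carrier, held 53.7, 45.2 and 55.4 in the healthy livers and 1006, 722 and 669 in the HCC livers (log2 fold change 3.95 ± 0.211 SE, adjusted p = 3.2e-08). Slc25a4, the heart and muscle form of the ATP/ADP exchanger, held 207, 70.9 and 112 in the healthy livers and 954, 1355 and 966 in the HCC livers (log2 fold change 3.07 ± 0.306 SE, adjusted p = 3.4e-06). Both were several-fold above the healthy range. Over all solute carriers tested, 63 rose and 88 fell of 269, against 95 higher and 53 lower with total-count scaling, and over ABC transporters 8 and 12 of 40, against 10 higher and 9 lower.

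**Figure D5:**
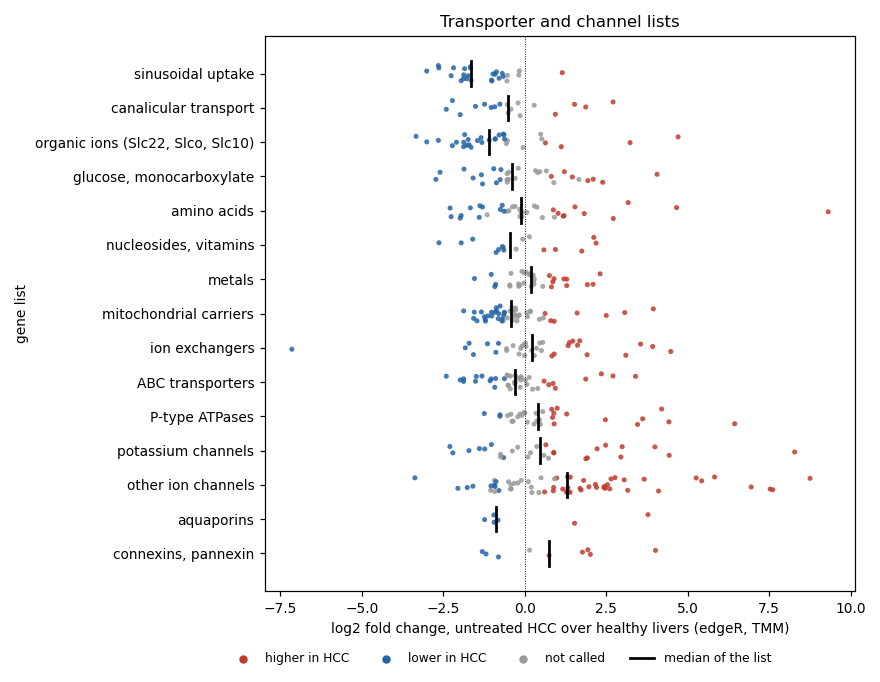
Log2 fold changes (x axis, untreated HCC over healthy livers, edgeR) of tested members of 15 transporter and channel lists (y axis), colored by call, with list medians as bars and genes at the counting floor at their fitted value. Sinusoidal uptake and organic-ion carriers have medians of -1.64 and -1.09, and ion channels other than those for potassium a median of 1.28.

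Ion channels and pumps were raised more often than lowered. Channels for sodium, calcium, chloride and other ions rose in 36 of 61 and fell in 9 (median log2 fold change 1.28). Scn8a, a voltage-gated sodium channel best known from neurons, held 1.22, 4.89 and 9.59 in the healthy livers and 674, 789.7 and 596 in the HCC livers (log2 fold change 6.95 ± 0.296 SE, adjusted p = 6.9e-09, or 7.74 without healthy replicate 3). Scnn1a, a subunit of the epithelial sodium channel, fell from 956, 858 and 702 to 49.1, 71.2 and 119.6 (log2 fold change -3.37 ± 0.261 SE, adjusted p = 4.6e-07). Clcn2, a chloride channel, fell from 1329, 1392 and 1164 to 323, 385 and 436 (log2 fold change -1.76 ± 0.155 SE, adjusted p = 1.2e-06), while the chloride channel Cftr rose as given above. Potassium channels rose in 12 and fell in 7 of 28, against 14 higher and 4 lower with total-count scaling. Kcnn2 and Kcnn4, calcium-activated channels of small and intermediate conductance, moved apart. Kcnn2 held 909, 964 and 812 in the healthy livers and 122, 157 and 264 in the HCC livers (log2 fold change -2.29 ± 0.239 SE, adjusted p = 4.9e-06). Kcnn4 held 12.2, 11 and 5.33 in the healthy livers and 89.1, 85.1 and 52.9 in the HCC livers (log2 fold change 2.99 ± 0.3801 SE, adjusted p = 2.5e-05). P-type ATPases rose in 12 and fell in 3 of 32, against 18 higher and 1 lower with total-count scaling, among them Atp4a, the gastric proton pump, at 8.54, 25.7 and 21.3 in the healthy livers and 228, 299.7 and 164 in the HCC livers (log2 fold change 3.62 ± 0.318 SE, adjusted p = 1.2e-06), and the lipid flippase Atp11a (log2 fold change 2.48). Ion exchangers rose in 12 and fell in 7 of 35, against 17 higher and 4 lower with total-count scaling. Slc26a1, a sulfate exchanger, held 6476, 7175 and 7432 in the healthy livers and 2004, 2054 and 2411 in the HCC livers (log2 fold change -1.70 ± 0.176 SE, adjusted p = 4.4e-06). Slc26a2, another, held 216, 241 and 214 in the healthy livers and 694, 832 and 541 in the HCC livers (log2 fold change 1.62 ± 0.158 SE, adjusted p = 2.7e-06).

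Water and gap-junction channels shifted among paralogs. Of 6 tested aquaporins, 4 fell and 2 rose, against 2 higher and 1 lower with total-count scaling. Aqp9, the glycerol channel of the hepatocyte, held 7384, 7294 and 6893 in the healthy livers and 3034, 2398 and 3764 in the HCC livers (log2 fold change -1.23 ± 0.149 SE, adjusted p = 1.7e-05). Aqp8, of the canalicular membrane, held 1600.2, 1489 and 1364 in the healthy livers and 4757, 3007 and 5095 in the HCC livers (log2 fold change 1.53 ± 0.178 SE, adjusted p = 1.2e-05). Of 9 connexins and pannexins, 5 rose and 3 fell, while their share of counts was lower in the HCC livers without overlap (0.0963% and 0.0689%). Gjb1 and Gjb2 encode the connexins of the hepatocyte. Gjb1 held 12638, 11967 and 12808 in the healthy livers and 6637, 6487 and 8324 in the HCC livers (log2 fold change -0.80 ± 0.134 SE, adjusted p = 0.00023). Gjb2 held 9469, 8011 and 8638 in the healthy livers and 3748, 3071 and 3798 in the HCC livers (log2 fold change -1.30 ± 0.136 SE, adjusted p = 5.1e-06). Gja1, a connexin of mesenchymal cells, held 89.03, 129.6 and 98.1 in the healthy livers and 379, 417 and 288 in the HCC livers (log2 fold change 1.77 ± 0.216 SE, adjusted p = 1.7e-05). It was separated in every liver. Panx1, pannexin 1, held 18.3, 7.33 and 9.59 in the healthy livers and 180, 238 and 154 in the HCC livers (log2 fold change 4.01 ± 0.311 SE, adjusted p = 4.7e-07). The hepatocyte connexins fell and the others named rose in every HCC liver.

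The share of all counts gives a view that is independent of TMM scaling. Alb took 8.66% to 8.97% of the counts of each healthy library and 5.11% to 5.73% of each HCC library. Sinusoidal uptake transporters took 1.25% of healthy and 0.534% of HCC counts, and non-collagen matrix genes 0.514% and 1.41%. Ductal and progenitor genes went from 0.03897% to 0.693%, Spp1 included, and without the 50 most abundant genes, from 0.0531% to 0.207%. Of the 75 lists, 63 had shares that did not overlap between the 3 healthy and 3 HCC livers, each with an exact permutation p = 0.1, the smallest this design can give, so that no share passes a threshold of 0.05. Complement genes took a larger share in the HCC livers (2.78% against 2.22%) although more of them fell than rose with TMM scaling, and Clu is a member of the list. Without the 50 most abundant genes the share of complement genes was instead lower in the HCC livers, by -0.0349 percentage points.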

How the data were processed

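RNA from whole liver was sequenced as non-directional libraries. Per the submitters' processing notes, FastQC 0.11.7, Salmon, DESeq2 1.18 and GRCm39 were used, and the authors deposited a table of gene counts (55401 genes, 9 libraries), the only values used here. A second deposited table, of the same counts divided by 1 factor per library, was not used. The members and gene lists were chosen with earlier results of these data known. Counts were fitted for all 9 libraries in 3 groups with the quasi-likelihood test of edgeR 4.0.16 (R 4.3.3), TMM scaling and filterByExpr, and p-values were adjusted by Benjamini-Hochberg over 15717 genes. The common dispersion was 0.0206. Genes were called at adjusted p under 0.05 and a fold over 1.5. Named genes were the anchors of each list, its members with the largest called changes in each direction, the largest changes over all genes in level and in share of counts, and Akt1 and Nras; others are said to be named after their values were seen, and some genes and 1 motif that the rules name are not reported here. Against a group at 0 counts, a fold is a bound from a floor of 3 counts per library. For groups with 1 to 9 counts in all, the ratio is given with an exact interval, and intervals and floors cover counting error only. Nothing beyond their being separate livers describes the replicates, so p-values measure the spread between these livers.

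The test was run on simulated counts for this comparison over 15375 genes, with 200 changed. It called 108 of 108 genes changed 4-fold and 84 of 92 changed 2-fold, with 8 false calls. Its performance with as many genes changed as were called in the livers (6417 of 15717) was not tested. Shares of counts were compared by an exact two-sided permutation test over 20 splits (smallest p = 0.1). Alternatives were DESeq2 1.42.0 (size factors and Wald test), total counts, other count filters, 6 libraries, a replicate block, glmTreat, no fold threshold, leaving out each liver, shares without the 50 top genes and a shorter promoter window. Promoters are RefSeq windows on GRCm38.p6 (32851 windows, 27025 genes), of which 300 bases each are shown, and gene positions come from GRCm39. Motif shares were not compared between called classes, because 73.2% of tested symbols had a window, under the 80% needed. Antisense partners share reads without strand, and genes of near-identical families (Mup, Cyp2c, Cyp3a, Serpina1, Serpina3, Sult) are uncertain. Of the symbols in the lists, 3 were not found and 5 were matched by another name.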

Additional observations from a re-analysis of the deposited data

How the results depend on the processing

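Among genes called both in the main fit and under an alternative run across all genes, none changed sign. Genes called in only 1 of the fits were not part of that count. The main count of 6417 called genes became 6421 with DESeq2 size factors, 6432 with the DESeq2 Wald test, 6317 in a fit of the 6 libraries alone, 6978 without the filter on low counts and 4873 with at least 10 counts in every library. Under glmTreat against a fold of 1.5 it was 4536, with 1854 lower, and without the fold threshold 8838. With total counts in place of TMM the median log2 fold change rose by 0.422, 5986 genes were called higher and 1492 lower (80% higher, against 55.7% in the main fit), and 60 lists had more members higher and 13 more lower, against 42 and 29. Of 616 tested genes that the naming rule picked, 67 lost their call and 22 gained one under total counts; Ttr, Hnf4a, Egfr, Hand2, Timd4, Slc40a1 and Gjb1 are among the former. Without 1 liver the count ranged from 6062 to 6587 (3409 to 3622 higher and 2653 to 2965 lower), lists with more members higher numbered 43 to 44 and with more lower 26 to 30, and 64 to 68 list shares did not overlap. Of 533 named genes called, 44 lost the call without 1 liver. The log2 fold change of Fos was -0.39 in the main fit and ranged from -0.91 to 1.84 without 1 liver. Lists near balance also turned elsewhere: Kupffer genes to 4 higher and 3 lower with the replicate block, acute-phase genes to 11 and 9 under glmTreat, Fgf genes to 0 and 1 with at least 10 counts in every library, and mesothelial genes to 2 and 1 in the fit of 6 libraries. Amino-acid transporters turned to 8 and 6 under glmTreat, to 9 and 8 with the replicate block, and to 10 to 12 higher and 9 to 10 lower when any 1 liver but healthy replicate 1 was left out. Shares without the 50 most abundant genes reversed for complement (-0.0349 percentage points) and acute-phase genes (0.0459). With promoter windows cut to 200 bases before the start, the shares of windows with a match were 0.679% for the D-box, 29.3% for CCAAT and 9.96% for TATA. Where no construction shows it, the cause of these changes was not tested.

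Replicate numbers 2 and 3 occur in both groups. Deviations of same-numbered livers correlated at -0.00747 and -0.0259, so the numbers were not taken to pair livers. With the replicate block 5863 genes were called (3268 higher and 2595 lower), 34 of the 616 named genes lost their call and 6 gained one, and Fos reversed to 2.01. Under glmTreat 78 of them lost the call. Genes with only a few counts per liver limit the ratios given with counting intervals.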

Other observations

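Genes that are known to differ between female and male mouse liver were read as lists of their own, both written after values had been seen, so their counts are a description and support nothing. All mice were labelled female. Of 19 genes that are known as female-biased, 19 were lower in the HCC livers, with a median log2 fold change of -4.03. A1bg, a plasma glycoprotein gene, held 64906, 61274 and 64974 in the healthy livers and 557, 4227 and 4516 in the HCC livers (log2 fold change -4.36 ± 0.731 SE, adjusted p = 0.00024). Sult3a1, a sulfotransferase, held 28804, 30399 and 30446 in the healthy livers and 276, 2347 and 2930 in the HCC livers (log2 fold change -4.01 ± 0.738 SE, adjusted p = 0.0005). HCC replicate 2 held the least of both, and no HCC liver reached the healthy range. Sulfotransferase and Cyp2c, Cyp2b and Cyp3a genes have near-identical copies, so that reads may be shared within each family.

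The 16 genes that are known as male-biased did not mirror this, with 6 higher, 8 lower and a median log2 fold change of -0.72. Cyp4a12a, a fatty-acid hydroxylase, held 3.66, 1.22 and 9.59 in the healthy livers and 2065, 830.5 and 1525 in the HCC livers. Cyp2d9, a steroid hydroxylase, held 255, 345 and 330.4 in the healthy livers and 1861, 1382 and 1304 in the HCC livers (log2 fold change 2.29 ± 0.191 SE, adjusted p = 8.3e-07). Both were higher in every HCC liver, as was Mup20. Hsd3b5, a steroid reductase, held 161, 169 and 189 in the healthy livers and 0.909, 0 and 5.798 in the HCC livers, and Cyp7b1, an oxysterol hydroxylase, held 1014, 1046 and 1238 in the healthy livers and 220, 242 and 254 in the HCC livers (log2 fold change -2.20 ± 0.201 SE, adjusted p = 1.7e-06). These were lower in every HCC liver. Esr1, Stat5b and Igf1, which are in neither list and whose values are given in the report, were lower in the HCC livers. Age at harvest was not given for the healthy mice, and its part in these values cannot be told apart from that of the tumor.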
